A study of Rattus norvegicus with 4 samples.

Results

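The chemokines and chemokine receptors were taken as every non-control probe whose gene name begins with Ccl, Ccr, Cxcl, Cxcr, Xcl, Xcr, Cx3cl or Cx3cr followed by a digit. Ccl11, Ccl19, Ccl21 with its lettered forms, Cxcl13 and Ccr7 were left out by the rule. Of the genes so chosen 46 are described here, measured by 51 of the 30367 probes of the arrays, with 34 probes for ligands and 17 for receptors. The rule reads names and no measured value.

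Chemokines are small secreted or membrane-anchored proteins that steer leukocytes along gradients. They bind G protein-coupled receptors on the responding cell, and their names (CC, CXC, CX3C, XC) follow the spacing of the first conserved cysteines. In pancreatic islets they are known as products of resident macrophages, endothelium, stroma and cytokine-exposed endocrine cells, and as attractants of monocytes, neutrophils and lymphocytes.

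RNA was measured in isolated pancreatic islets of Sprague Dawley rat offspring at postnatal day 14. In the group called IUGR (intrauterine growth restriction, 4 samples) the dams had their uterine arteries tied on both sides at embryonic day 18. The dams of the 4 control samples had sham surgery, so that mothers of both groups were operated on. Each of 4 two-colour arrays held 1 IUGR sample and 1 control sample, with IUGR in Cy5 on arrays 1 and 2 and in Cy3 on arrays 3 and 4. Array 1 paired IUGR replicate 2 with control replicate 1, array 2 IUGR replicate 1 with control replicate 2, array 3 IUGR replicate 4 with control replicate 3, and array 4 IUGR replicate 3 with control replicate 4. The labels call the samples biological replicates but do not give the sex, the litter or the number of animals behind a sample, so p-values measure the spread between these samples. The ratios given here are log2 IUGR over control intensity after loess normalization. The fitted value of a gene is given ± the moderated SE of limma with a dye term, over 4 arrays, and a level is a normalized log2 intensity of 1 channel.

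Median signals ran from 105 to 344 intensity units in the IUGR channels and from 107 to 823 in the control channels. The IUGR channel was the brighter of its array only on array 1 (log2 brightness difference 1.68, against -2.42 to -1.55 on the others). Counting the 51 member probes, 40, 27, 34 and 30 exceeded background clearly in the IUGR samples of arrays 1 to 4, and 33, 40, 43 and 42 did in the control samples. No spot was saturated (0 spots). Array 1 stood apart: across genes, which are not independent replicates, r between its ratios and those of array 2, array 3 and array 4 was 0.13, -0.23 and -0.30, while the other pairs lay between 0.37 and 0.63. Results that rest on it are therefore given with and without it. Leaving out an array leaves only 1 array in 1 of the dye orientations. The SE of such a fit rests on the other 2 arrays and on limma's moderation, so a smaller SE does not show closer agreement. Of 8 beta cell markers listed, 7 were on the arrays, and all 7 were bright enough to be tested. Their summed intensities were 733000, 973000, 339000 and 446000 in the IUGR samples of arrays 1 to 4. In the control samples they were 369000, 357000, 600000 and 721000. The beta cell sum was thus higher in IUGR on arrays 1 and 2 and lower on arrays 3 and 4, so it turned with the dye orientation. Markers of acinar cells, the enzyme-secreting cells around islets, had sums of 455000, 559000, 1280000 and 725000 in the IUGR samples of arrays 1 to 4. In the control samples the acinar sums were 336000, 537000, 398000 and 798000. The acinar sum exceeded the beta cell sum in the IUGR samples of arrays 3 and 4 and the controls of arrays 2 and 4. Sums over different probes do not give shares of cells, and the part of acinar RNA in the member ratios was not tested.

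Which members differed between IUGR and control islets was asked in a limma fit over 20012 genes. Of the 46 genes, 38 were tested (26 ligands and 12 receptors), the condition being a signal well above background in at least 2 of 4 IUGR or 2 of 4 control channels. Counts over these 38 describe the genes that passed and do not stand for all members. No member was called higher and none lower at a Benjamini-Hochberg adjusted p under 0.05 (0 of 38), where the table as a whole gave 0.0% in each direction. The smallest limma adjusted p of the whole table was 0.339, and members ranged from that value to 0.99. At an unadjusted p under 0.05 there were 14 members (36.8%), against 13.7% of all genes tested. Of these, 5 were higher in IUGR (13.2%, against 7.13% of all genes), namely Ccl6, Cxcl2, Cxcl14, Ccr1 and Cx3cr1. The 9 lower ones (23.7%, against 6.54%) were Ccl5, Ccl20, Ccl28, Cxcl1, Cxcl17, Cx3cl1, Xcl1, Ccr6 and Cxcr4. Ccl1, Ccl4, Ccl28, Ccr1l1, Cxcr5 and Cxcr6 passed the filter through control channels only, which favoured a lower IUGR value, and none passed through IUGR channels only (0 genes). Of the 32 other members, 5 were higher and 8 lower at an unadjusted p under 0.05.

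That count moved with single arrays. It was 17 without array 1, where 31.1% of all genes passed, 8 without array 2 (4.68% of all genes), 6 without array 3 (2.36%) and 9 without array 4 (10.9%). All 4 arrays gave the same sign for 3 members above 0 (7.89%), against 11.0% of all genes, and for 7 members below 0 (18.4%), against 9.69%. For either sign the share over all genes was 20.7%. The fitted ratio was above 0 for 16 members (42.1%), against 53.0% of all genes. Ligands had a median ratio of -0.16, with 9 above and 17 below 0, and array medians of 0.13, -0.06, -0.37 and -0.10. Receptors had a median of 0.0074, with 7 above and 5 below 0, and this median changed sign with the processing (-0.18 from Agilent's processed signals, 0.31 under median centring in place of loess). The median over all genes was 0.014. The IUGR and control levels of a gene did not overlap for 1 member, Ccl17, which was lower in IUGR. Over all genes the levels were apart in 1.61% in that direction and in 1.37% in the other.

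**Figure D1:**
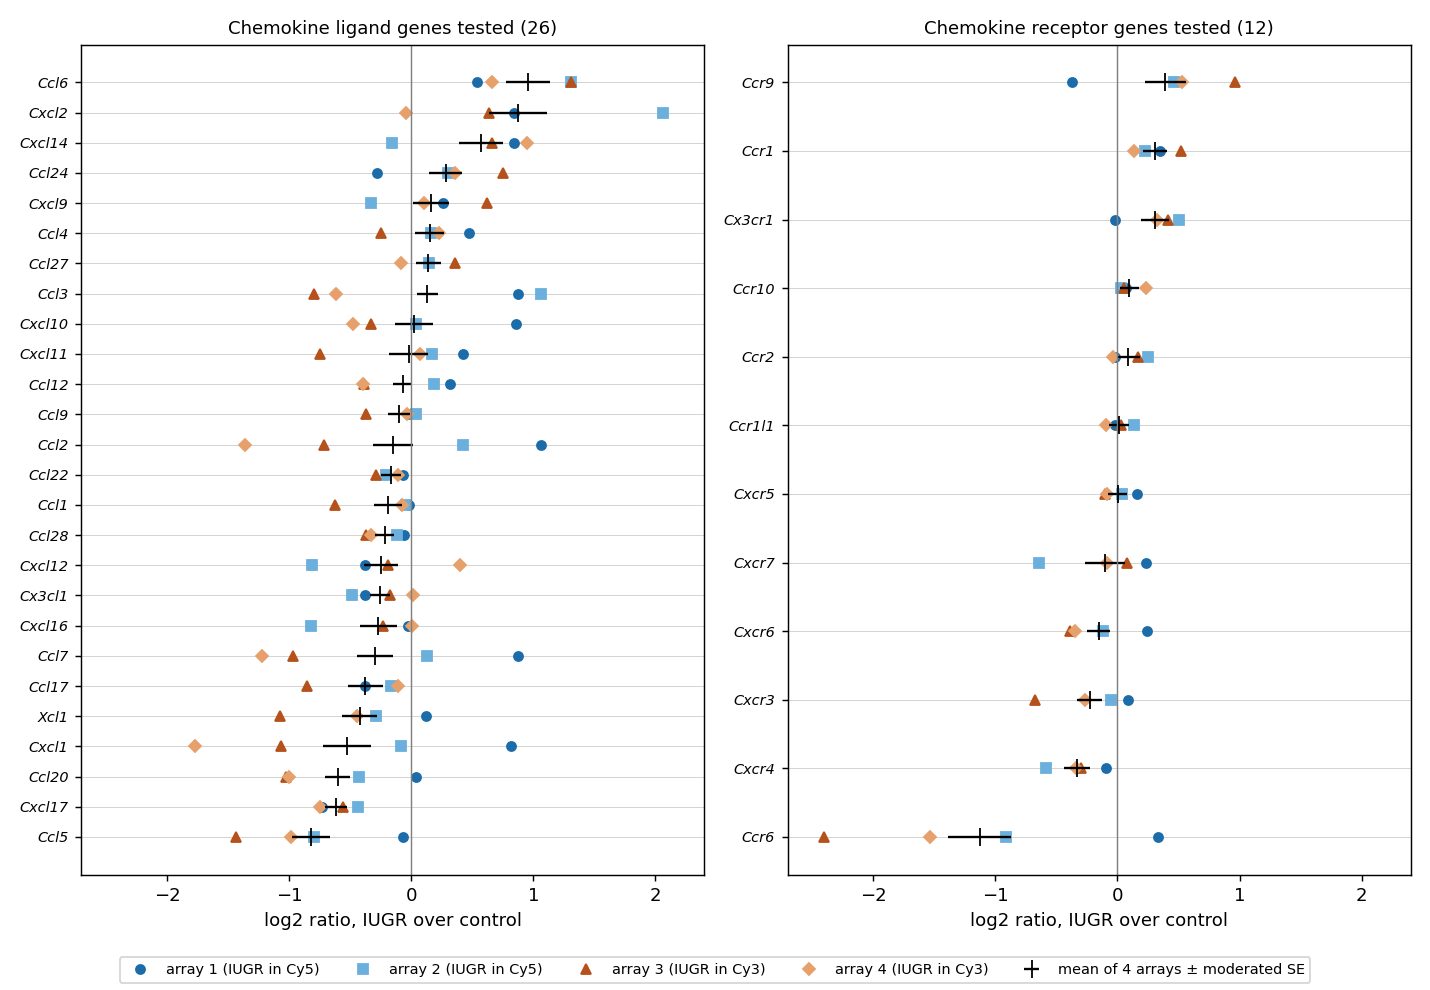
Log2 IUGR over control ratio (horizontal axis) of each tested ligand gene (left) and receptor gene (right), with a symbol for each of the 4 arrays and a black cross for the mean of 4 arrays ± the moderated SE of limma. Ccl6 lies highest and Ccl5 lowest among ligands, Ccr6 lies lowest among receptors at -1.13 ± 0.26, and the symbols of array 1 often lie to the right of those of arrays 3 and 4.

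The inflammatory CC ligands, which draw monocytes, macrophages and effector T cells, held the family's highest ratio (Ccl6) and its lowest ligand ratio (Ccl5). Of 8 tested, 3 were above and 5 below 0, 1 was higher and 1 lower at an unadjusted p under 0.05, and the median was -0.083. Ccl6 is a rodent chemokine made by macrophages that acts on Ccr1. Its levels were 11.01, 10.12, 10.03 and 9.87 in the IUGR samples of arrays 1 to 4 and 10.47, 8.81, 8.73 and 9.21 in the control samples. The IUGR sample was the higher on every array, though the control of array 1 lay above 3 IUGR samples, so the groups overlapped. The array ratios were 0.54, 1.31, 1.31 and 0.66, and the fitted ratio was 0.95 ± 0.18 (1.94-fold, limma adjusted p = 0.339). Without array 1 it was 1.15 ± 0.16, from a fit in which array 2 alone had IUGR in Cy5.

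The files hold a second Ccl6 probe of other sequence, upstream of the first on the transcribed strand, and it gave a mean ratio of 0.83, with 0.60, 1.28, 0.92 and 0.54 on arrays 1 to 4. Its bases are shown because it measured the member of the highest ratio at another place of the transcript. One of its reading frames runs without interruption to a stop codon at its last bases, which are the end of the line below, and it maps to the minus strand at chr10:71660623-71660682 of rat assembly rn4.
Ccl6 probe A_64_P095920: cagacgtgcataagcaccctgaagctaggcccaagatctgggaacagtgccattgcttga

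Ccl5, a ligand of Ccr1 made by T cells, natural killer cells and macrophages, was lower in IUGR. Its levels were 8.71, 9.24, 9.36 and 9.23 in the IUGR samples and 8.78, 10.03, 10.80 and 10.21 in the control samples. The IUGR samples lay close together, and the controls were spread, with the control of array 1 level with its IUGR partner. The array ratios of -0.07, -0.80, -1.44 and -0.99 gave a fitted ratio of -0.82 ± 0.16 (limma adjusted p = 0.339), and -1.0 ± 0.13 without array 1. Its probe, at chr10:71605854-71605913 of rn4, lies in the same cluster as Ccl6, Ccl9, Ccl3 and Ccl4.

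The monocyte attractants Ccl2, Ccl7 and Ccl12, which act on Ccr2, turned with the array in place of the group. Ccl2 had levels of 12.29, 10.86, 9.95 and 9.57 in IUGR and 11.23, 10.44, 10.66 and 10.93 in control samples. Here the IUGR samples were spread and the controls lay together within them. The array ratios were 1.06, 0.42, -0.71 and -1.36, the fitted ratio -0.15 ± 0.16 (limma adjusted p = 0.622), and its sign turned when array 2 or array 4 was left out (0.013 and 0.017), against -0.31 without array 1 or array 3. Ccl7, named after its values were seen, had 0.87, 0.13, -0.97 and -1.22 and a fitted ratio of -0.30 ± 0.15, which was -0.48 ± 0.11 without array 1 and -0.11 ± 0.11 without array 2. Ccl12 had 0.32, 0.19, -0.38 and -0.40 and a fitted ratio of -0.07 ± 0.08. All 3 were above 0 on the arrays with IUGR in Cy5 and below 0 on those with IUGR in Cy3. Ccl3, a ligand of Ccr1 likewise named after its values were seen, followed the same pattern at 0.88, 1.06, -0.79 and -0.62, with a fitted ratio of 0.13 ± 0.08, and 0.086 and 0.087 without array 2 or array 4. Ccl4 and Ccl9, at 0.15 ± 0.12 and -0.10 ± 0.09, did not.

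The CC ligands tied to T helper 2 cells, skin and mucosa lay mostly below 0 (5 of 7 tested, median -0.19), with 2 lower and 0 higher at an unadjusted p under 0.05. Ccl1 and Ccl28 had passed through control channels only, and without them 3 were below and 2 above 0, with 1 lower. Ccl20, the ligand of Ccr6, had levels of 6.46, 6.76, 6.78 and 6.51 in IUGR and 6.42, 7.19, 7.80 and 7.52 in control samples. The 3 controls of arrays 2 to 4 lay above all IUGR samples, and the control of array 1 lay below them. The ratios were 0.04, -0.43, -1.02 and -1.0, the fitted ratio -0.60 ± 0.11 (limma adjusted p = 0.339), and -0.72 ± 0.10 without array 1. The gene was above background in 2 IUGR and 3 control channels. A second probe that overlaps the first on the genome, and so shares most of its bases, gave -0.50. That probe was above background in 1 IUGR and 3 control channels. It thus passed the filter through control channels only, which favoured a value below 0.

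Ccl17 and Ccl22, which bind Ccr4 on T helper 2 and regulatory T cells, were below 0 on every array. Ccl17 stood at 6.74, 6.72, 6.74 and 6.74 in IUGR and at 7.11, 6.89, 7.60 and 6.85 in control samples. All 4 IUGR samples were below all 4 controls, by the smallest margin on array 4. The ratios were -0.38, -0.16, -0.85 and -0.11. The fitted ratio was -0.38 ± 0.15 (limma adjusted p = 0.339), and -0.19 ± 0.14 without array 3. Ccl17 was dim, above background in 3 IUGR and 4 control channels, and its ratio ran from -1.09 to -0.051 over the alternatives. The probe, shown because it alone kept the groups apart, has a reading frame that runs to a stop codon at its end, and lies on the minus strand at chr19:10641376-10641435 of rn4.
Ccl17 probe A_64_P123430: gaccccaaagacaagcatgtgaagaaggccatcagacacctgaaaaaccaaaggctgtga
Ccl22 had smaller ratios of -0.07, -0.21, -0.29 and -0.11, and a fitted ratio of -0.17 ± 0.08 (limma adjusted p = 0.344).

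Ccl28, a mucosal ligand of Ccr10, and Ccl1, a ligand of Ccr8 made by activated T cells, passed the filter only through control channels, so the filter itself favoured a lower IUGR level. Ccl28 was above background in 0 IUGR and 3 control channels, with ratios of -0.06, -0.12, -0.37 and -0.33 and a fitted ratio of -0.22 ± 0.07 (limma adjusted p = 0.339), which became 0.43 ± 0.36 under median centring. Its measured means were 6.01 in IUGR and 6.23 in control samples. Taking the lowest signal measured above background in place of the dim IUGR values, the control mean was 1.04-fold the higher. This is not a strict bound, since not every control channel was above background and those values were kept. Ccl1 was above background in 0 IUGR and 2 control channels, and the same replacement gave 1.09-fold. Its ratios were -0.02, -0.04, -0.62 and -0.08, its fitted ratio -0.19 ± 0.11 (0.38 ± 0.36 under median centring, -0.052 without array 3 and -0.33 without array 4). The eosinophil attractant Ccl24, named after its values were seen, had -0.28, 0.30, 0.76 and 0.36 and a fitted ratio of 0.28 ± 0.14 (limma adjusted p = 0.341), which turned to -0.065 under median centring. Leaving out array 1 gave a Ccl24 ratio of 0.43 ± 0.13, leaving out array 2 gave 0.14 ± 0.13, and leaving out array 3 gave 0.19 ± 0.18. The skin ligand Ccl27 was at 0.14 ± 0.10. Ccl25, which guides T cells to the gut, exceeded background in 1 of the control samples and 0 of the IUGR samples, and the eotaxin Ccl26 in none (0 of 8 channels), so neither was tested.

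The neutrophil CXC ligands Cxcl1 and Cxcl2, which share the receptor Cxcr2, had fitted ratios of opposite sign, though on arrays 1 and 4 their ratios had the same sign. Cxcl2 had levels of 11.54, 10.59, 9.31 and 9.19 in IUGR and 10.71, 8.52, 8.68 and 9.24 in control samples. Array 2 carried the widest gap, and on array 4 the control was slightly the higher. The ratios were 0.84, 2.06, 0.63 and -0.04, the fitted ratio 0.87 ± 0.24 (1.83-fold, limma adjusted p = 0.339), with 1.18 ± 0.17 without array 1 and 0.57 ± 0.17 without array 2. Cxcl1 had levels of 11.71, 10.45, 9.62 and 8.79 in IUGR and 10.90, 10.53, 10.68 and 10.56 in control samples. The controls were nearly level, and the IUGR samples lay on both sides of them. The ratios were 0.82, -0.08, -1.07 and -1.77, the fitted ratio -0.53 ± 0.20 (limma adjusted p = 0.339), with -0.75 ± 0.17 without array 1, -0.30 ± 0.17 without array 2 and -0.35 ± 0.23 without array 4. The SD of the 4 Cxcl1 ratios was 1.13, and most of it lay along the dye orientation (dye term 0.89, limma adjusted p = 0.504). Cxcl3 and Cxcl6, of the same cluster on chromosome 14, were above background in no channel (0 of 8 each).

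Some genes of this cluster share letters in their promoters, which were searched without array values. All 46 genes matched the RefSeq table of assembly GRCr8, and 36 of them had a promoter sequence there. The letters GGGANTTNCC, a form of the site of the transcription factor NF-kappaB, were searched on both strands (reverse GGNAANTCCC) in the 250 bases before each start. They were found in 4 of 36 member promoters (11.1%), namely Cxcl1, Cxcl2, Cxcl6 and Ccr3, against 0.974% of 33469 promoters of all genes. The TATA letters TATAAA (reverse TTTATA), which do not overlap that site, were found in 11 of the 36 (30.6%) against 12.9%. A match is a description of letters and not a site in use. Below are the last 120 bases before the start of the 3 CXC ligand genes, all on the minus strand of chromosome 14 of GRCr8 and printed 5′ to 3′, with the matching letters in capitals.
Cxcl1 promoter, chr14:17479322-17479441: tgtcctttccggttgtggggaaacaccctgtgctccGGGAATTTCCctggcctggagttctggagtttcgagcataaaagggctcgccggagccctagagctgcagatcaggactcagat
Cxcl2 promoter, chr14:17467256-17467375: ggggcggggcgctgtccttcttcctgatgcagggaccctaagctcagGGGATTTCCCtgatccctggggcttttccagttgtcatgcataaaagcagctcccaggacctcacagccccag
Cxcl6 promoter, chr14:17596418-17596537: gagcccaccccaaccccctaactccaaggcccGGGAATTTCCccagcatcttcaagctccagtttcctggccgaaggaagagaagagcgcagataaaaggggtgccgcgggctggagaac
The match begins 84 bases before the start in Cxcl1, 73 in Cxcl2 and 88 in Cxcl6. The 3 genes thus carry like letters at like distances. The fitted ratio was below 0 for Cxcl1 and above 0 for Cxcl2, with opposite signs on only some of the arrays. Cxcl6 was above background in no channel.

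The interferon-induced CXC ligands, which attract Cxcr3-bearing T cells and natural killer cells, gave no member with an unadjusted p under 0.05 (0 of 3). Cxcl10 had levels of 8.93, 8.25, 8.25 and 7.74 in IUGR and 8.07, 8.21, 8.58 and 8.22 in control samples, with overlap. Its ratios were 0.86, 0.04, -0.33 and -0.48 and its fitted ratio 0.02 ± 0.15, whose sign turned under 4 alternatives (median centring, Agilent's processed signals, and without array 1 or array 3). Cxcl9 was at 0.16 ± 0.15 and Cxcl11 at -0.02 ± 0.16.

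Among the remaining ligands, 5 of 6 were below 0 with a median of -0.26, and 1 was higher and 3 lower at an unadjusted p under 0.05. Cxcl17, a mucosal chemokine, had the smallest p of the family. It stood at 6.90, 6.76, 7.39 and 7.01 in IUGR and at 7.63, 7.20, 7.95 and 7.76 in control samples. The control was the higher on every array, with array 3 highest in both groups. Of 5 duct cell markers tested, 4 were likewise below 0 and 2 were lower at an unadjusted p under 0.05, the keratin Krt19 at -0.64 and the chloride channel Cftr at -1.05, each below 0 on 4 arrays. The summed intensity of duct markers was 4600 to 6480 in IUGR and 4690 to 8040 in control samples, and their part in the ratios of Cxcl17 and the other epithelial ligands was not tested. For Cxcl17 the ratios of -0.73, -0.44, -0.56 and -0.75 gave -0.62 ± 0.09 (limma adjusted p = 0.339), and -0.54 ± 0.11 without array 1. Cx3cl1, the membrane-anchored ligand of Cx3cr1, had ratios of -0.38, -0.49, -0.18 and 0.01 and a fitted ratio of -0.26 ± 0.08 (limma adjusted p = 0.339). Cxcl14, a chemokine of epithelia and stroma, had ratios of 0.84, -0.16, 0.66 and 0.95 and a fitted ratio of 0.57 ± 0.18 (limma adjusted p = 0.339). Array 2 alone was below 0 for Cxcl14, and the fitted ratio was 0.32 ± 0.12 without array 1.

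Xcl1, which T cells and natural killer cells release and which binds Xcr1 on dendritic cells, was at 7.18, 7.09, 6.84 and 7.00 in IUGR and at 7.06, 7.38, 7.92 and 7.44 in control samples. The control of array 3 was the highest sample and that of array 1 the lowest control. The ratios were 0.12, -0.29, -1.08 and -0.44 and the fitted ratio was -0.42 ± 0.14 (limma adjusted p = 0.339), and -0.26 ± 0.15 without array 3. A second, separate Xcl1 probe gave a mean ratio of -0.41. That probe was above background in 1 IUGR and 3 control channels. It thus passed the filter through control channels only, which favoured a value below 0. The probe that stood for the gene, on the minus strand at chr13:80691195-80691254 of rn4, has a reading frame that runs to a stop codon at its end.
Xcl1 probe A_64_P024948: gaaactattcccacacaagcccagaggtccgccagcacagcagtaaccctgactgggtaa
Cxcl12, the stromal ligand of Cxcr4, had -0.38, -0.81, -0.19 and 0.40 and a fitted ratio of -0.24 ± 0.14 (limma adjusted p = 0.379), and a second probe gave -0.37. Leaving out array 2, array 3 or array 4 gave -0.14, -0.096 and -0.39 for Cxcl12. Cxcl16, the transmembrane ligand of Cxcr6, had -0.02, -0.82, -0.23 and 0.01 and a fitted ratio of -0.27 ± 0.15 (limma adjusted p = 0.379), which was -0.47 ± 0.11 without array 1 and -0.068 ± 0.11 without array 2.

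**Figure D2:**
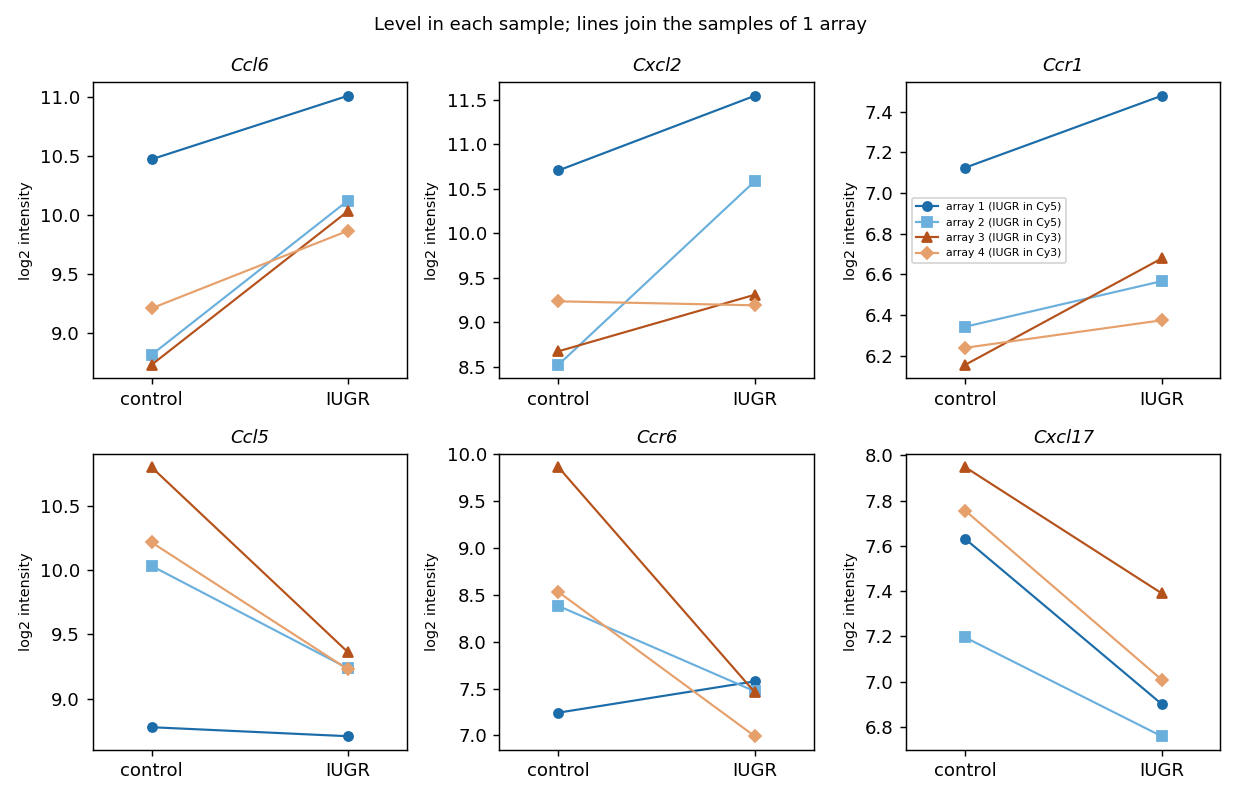
Normalized log2 intensity (vertical axis, a separate scale in each panel) in the control and IUGR sample of each array for 6 member genes, with a line joining the 2 samples of an array. Ccl6, Ccr1 and Cxcl17 lean the same way on all 4 arrays, while for Ccl5 and Ccr6 the control samples span a wide range and the IUGR samples a narrow one.

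The CC receptors included the lowest ratio of the family. Of 5 tested in this list, 4 were above and 1 below 0, and 1 was higher and 1 lower at an unadjusted p under 0.05. Ccr6, the receptor of Ccl20 on B cells, T helper 17 cells and dendritic cells, had levels of 7.58, 7.47, 7.46 and 6.99 in IUGR and 7.24, 8.38, 9.86 and 8.53 in control samples. The 3 controls of arrays 2 to 4 exceeded all IUGR samples, and on array 1 the IUGR sample was the higher. The ratios were 0.33, -0.91, -2.40 and -1.54 and the fitted ratio was -1.13 ± 0.26 (limma adjusted p = 0.339), and -1.44 ± 0.20 without array 1. The SD of the 4 ratios, 1.15, was about as large as the fitted ratio.

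Ccr1, the receptor of Ccl6, Ccl3 and Ccl5 on monocytes and neutrophils, was above 0 on every array. It stood at 7.48, 6.57, 6.68 and 6.38 in IUGR and at 7.12, 6.34, 6.16 and 6.24 in control samples. Both samples of array 1 lay above all others, so the groups overlapped. The ratios of 0.35, 0.22, 0.52 and 0.13 gave 0.31 ± 0.10 (limma adjusted p = 0.339), and 0.28 ± 0.13 without array 1. Ccr1 was above background in 2 IUGR and 4 control channels, and its ratio ran from 0.18 to 1.02 over the alternatives. Its probe has no stop codon in a pair of reading frames and lies on the minus strand at chr8:128694469-128694528 of rn4.
Ccr1 probe A_44_P358235: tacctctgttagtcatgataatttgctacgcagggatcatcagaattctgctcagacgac
Ccr2, the monocyte receptor of Ccl2, was near 0 on every array (-0.02, 0.25, 0.17 and -0.04, fitted 0.09 ± 0.09), and its sign turned to -0.00019 with channel brightness as a covariate. Leaving out 1 array gave Ccr2 ratios of 0.16, 0.022, 0.037 and 0.14, in the order of the arrays. Ccr10 was above 0 on all arrays at 0.07, 0.03, 0.06 and 0.24, with a fitted ratio of 0.10 ± 0.08, and 0.054 without array 4. Ccr9, the gut-homing receptor, was named after its values were seen. It had -0.38, 0.46, 0.97 and 0.53 and a fitted ratio of 0.39 ± 0.17 (limma adjusted p = 0.339), with 0.60 ± 0.13 without array 1 and 0.19 ± 0.13 without array 2. Ccr1l1, a rodent relative of Ccr1, was at 0.01 ± 0.08. Ccr3, Ccr4 and Ccr8 were above background in no channel (0 of 8 each).

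Of the 6 other receptors tested, 2 were above and 4 below 0, with a median of -0.13, and 1 was higher and 1 lower at an unadjusted p under 0.05. Cxcr4, the receptor of Cxcl12 on most leukocytes and on progenitors, had levels of 8.13, 7.72, 8.16 and 7.82 in IUGR and 8.22, 8.31, 8.46 and 8.16 in control samples. The highest IUGR sample was level with the lowest control, and the control was the higher on every array. The ratios of -0.09, -0.59, -0.30 and -0.34 gave -0.33 ± 0.11 (limma adjusted p = 0.339), with -0.45 ± 0.10 without array 1 and -0.21 ± 0.10 without array 2. Its probe, on the minus strand at chr13:41308900-41308959 of rn4, has no stop codon in any of its 3 reading frames.
Cxcr4 probe A_44_P425580: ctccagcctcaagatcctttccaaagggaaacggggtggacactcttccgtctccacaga
Cx3cr1, the receptor of resident macrophages and patrolling monocytes, had ratios of -0.02, 0.51, 0.41 and 0.32 and a fitted ratio of 0.31 ± 0.11 (limma adjusted p = 0.339), with 0.44 ± 0.10 without array 1 and 0.17 ± 0.10 without array 2. Cxcr3 had 0.09, -0.05, -0.67 and -0.27 and a fitted ratio of -0.23 ± 0.10 (limma adjusted p = 0.339), which was -0.12 ± 0.13 without array 3 and turned to 0.19 ± 0.35 under median centring. Cxcr6, above background in 1 IUGR and 4 control channels, had 0.24, -0.12, -0.39 and -0.35 and a fitted ratio of -0.15 ± 0.09, which was -0.24 without array 1, -0.063 without array 2 and turned to 0.42 ± 0.35 under median centring. The B cell receptor Cxcr5 was at 0.00 ± 0.08 and the Cxcl12 scavenger Cxcr7 at -0.10 ± 0.16. Both Xcr1 probes were above background in no channel (0 of 8).

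Set side by side, ligand and receptor had the same sign in some pairs and not in others. Ccl20 and Ccr6 were both below 0 (-0.60 and -1.13), as were Cxcl12 and Cxcr4 (-0.24 and -0.33). Cxcl16 and Cxcr6 were at -0.27 and -0.15. Cx3cl1 and Cx3cr1 had opposite signs (-0.26 and 0.31), as did Ccl2 and Ccr2 (-0.15 and 0.09) and Cxcl10 and Cxcr3 (0.02 and -0.23). The signs of Cxcr6, Ccl2, Ccr2, Cxcl10 and Cxcr3 turned under at least 1 alternative. Of the other pairs, Xcl1 and Ccl22 were measured while their receptors Xcr1 and Ccr4 were not above background, and Cxcr2, the receptor of Cxcl1, had no probe.

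Several monocyte attractants changed sign with the dye orientation. A ratio above 0 on both arrays with IUGR in Cy5 and below 0 on both with IUGR in Cy3 was found in 6 members (15.8%), against 8.95% of all genes. They were Ccl2, Ccl3, Ccl7, Ccl12, Cxcl10 and Cxcr5. The opposite pattern was found in 0 members, against 7.25% of all genes. The dye term of the fit had an unadjusted p under 0.05 in 8 of the 38 tested members, against 9.22% of all genes. Of these 8, 7 were among the 26 tested ligands. An adjusted p under 0.05 for the dye term was found in none (0 members, 0.0% of all genes). For Ccl3 the dye term was 0.84 (limma adjusted p = 0.504) while its IUGR ratio was 0.13. The fitted ratio takes the dye difference out, so the SE of such a gene is far below the spread of its arrays: the SD of the 4 ratios was 0.97 for Ccl3 and 1.09 for Ccl2. The dye orientation and the pair of IUGR samples on those arrays cannot be told apart.

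**Figure D3:**
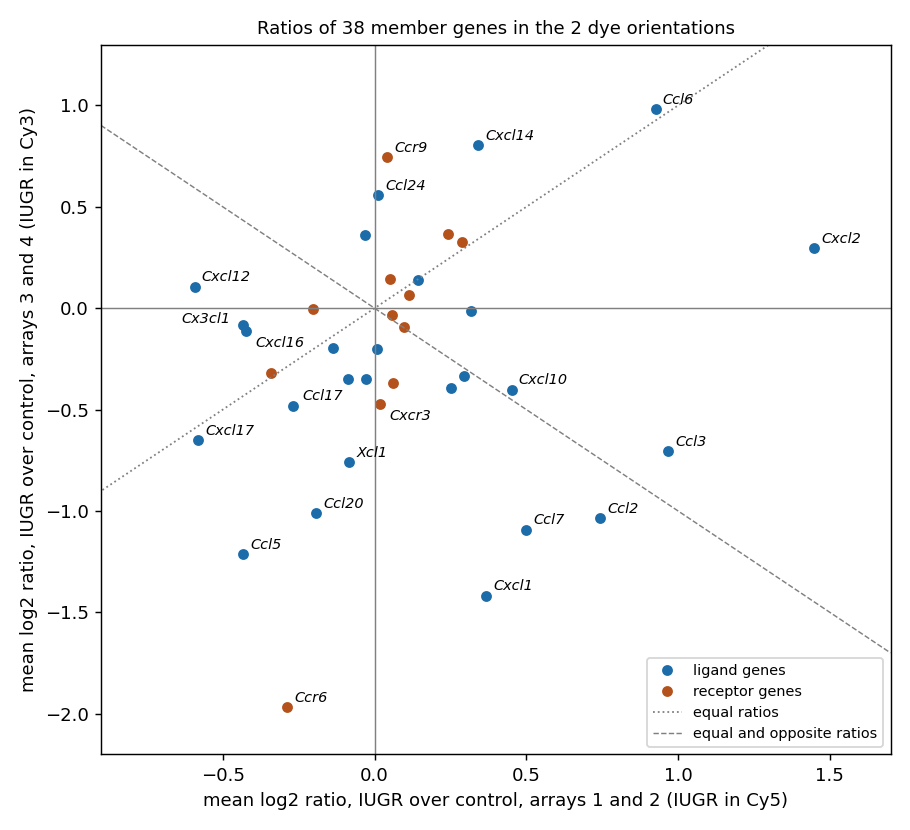
Mean log2 IUGR over control ratio on arrays 3 and 4 (IUGR in Cy3, vertical axis) against that on arrays 1 and 2 (IUGR in Cy5, horizontal axis) for each of the 38 tested genes, with ligands in blue and receptors in orange. Ccl3, Ccl2 and Ccl7 lie at the lower right near the dashed line of equal and opposite ratios, whereas Ccl6 and Cxcl17 lie near the dotted line of equal ratios.

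A second shared pattern ran over the arrays. The ratio was highest on array 1 and lowest on array 3 in 12 members (31.6%), against 14.5% of all genes, a pattern chosen after the values were seen. They were Ccl1, Ccl4, Ccl5, Ccl20, Ccl22, Ccl28, Cxcl11, Xcl1, Ccr6, Cxcr3, Cxcr5 and Cxcr6. Among them Ccl1, Ccl4, Ccl28, Cxcr5 and Cxcr6 passed the filter through control channels only, which favoured a lower IUGR value. Markers of T and natural killer cells followed the same order, with medians of 0.03, -0.15, -1.13 and -0.47 on arrays 1 to 4, and so did B cell markers, with 0.02, -0.19, -1.03 and -0.59. Of 15 T and natural killer markers tested, 14 were below 0 and 11 were lower at an unadjusted p under 0.05. Cd2, Cd3e, Cd8a and Klrb1a, all among the 11, passed the filter through control channels only, and of the 11 other markers 10 were below 0 and 7 lower. The summed intensity of the 15 was 2190, 1980, 2160 and 1850 in the IUGR samples of arrays 1 to 4 and 2170, 2690, 8240 and 3310 in the control samples. All 6 B cell markers tested were below 0, among them Ms4a1 and Cr2, which passed through control channels only, with sums of 629 to 1080 in IUGR and 613, 951, 2430 and 1230 in control samples. The control of array 3, replicate 3 of the labels, had the highest sum of both lists. It also had the highest level of Ccl5, Ccl20, Xcl1, Ccr6 and Cxcr3, and the highest median signal of any channel (823). The log2 IUGR over control brightness was 1.68, -1.58, -2.42 and -1.55 on arrays 1 to 4. It was thus likewise highest on array 1 and lowest on array 3. With channel brightness as a covariate, the fitted ratios of Ccl5, Ccl20, Xcl1, Ccr6 and Cxcr3 were -0.59, -0.47, -0.26, -0.72 and -0.16. All were smaller in size than in the main fit. Apart from this fit, the part of brightness in the pattern was not tested. No marker of either list was at or below background in every channel. Their part in the ratios of Ccl5, Ccl20, Xcl1, Ccr6 and Cxcr3 was not tested. In such bulk RNA, fewer cells of a type and less RNA per cell cannot be told apart.

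Ccl6, Ccr1, Cx3cr1 and Ccr2, genes of monocytes and macrophages set side by side after their values were seen, had fitted ratios of 0.95, 0.31, 0.31 and 0.09, while Ccl5, which macrophages make too, was at -0.82. Of 12 macrophage and monocyte markers tested, 8 were above 0, 7 were higher and 1 lower at an unadjusted p under 0.05, and the medians were 0.33, 0.54, 0.09 and 0.13 on arrays 1 to 4. Their summed intensity did not follow: it was 50100, 27400, 33000 and 29300 in IUGR and 44600, 27200, 46900 and 48100 in control samples. Lyz2, an abundant lysozyme, was the marker that was lower (-0.68 ± 0.12), and Cd14, Mrc1 and Aif1 were at -0.46, -0.21 and -0.16, while the scavenger receptor Cd163 was at 0.89 ± 0.14 and the growth factor receptor Csf1r at 0.62 ± 0.12. Of 8 neutrophil markers tested 6 were above 0, with medians of -0.26, 0.45, 0.73 and 0.86, against 0.84, 2.06, 0.63 and -0.04 for the neutrophil attractant Cxcl2. Mpo passed the filter through IUGR channels only and Csf3r through control channels only, and of the 6 other neutrophil markers 5 were above 0. The 8 tested mast cell and eosinophil markers and the 4 tested genes of red cells had fitted ratios above 0 without exception, with list medians of -0.20, 0.49, 1.11 and 0.62 and of -0.29, 0.30, 1.35 and 1.08 on arrays 1 to 4. On array 1 none of either list was above 0 (0 genes), and on array 2 there were 5 of 8 and 3 of 4. The eosinophil gene Epx passed the filter through IUGR channels only, which favoured a ratio above 0, and without it 7 markers of that list remain. The mast cell protease Mcpt1 and the red cell gene Epb42 were above background in no channel. The part of these cells in the member ratios was not tested.

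**Figure D4:**
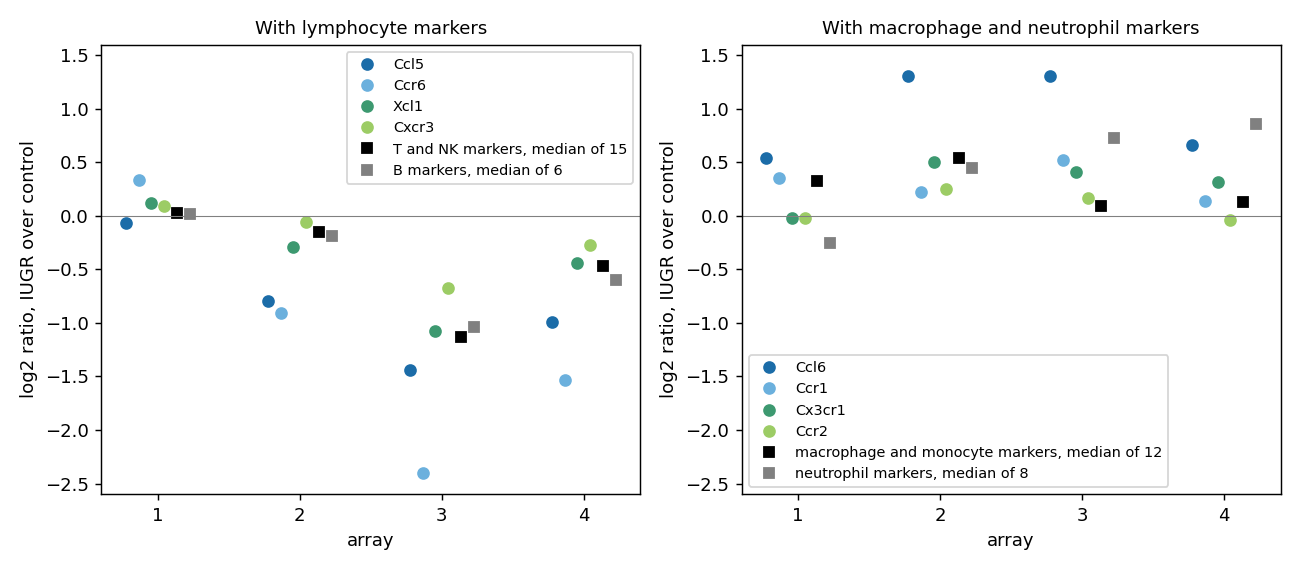
Log2 IUGR over control ratio (vertical axis) on each array (horizontal axis, symbols set slightly apart) of Ccl5, Ccr6, Xcl1 and Cxcr3 with the medians of T and NK and of B cell markers (left), and of Ccl6, Ccr1, Cx3cr1 and Ccr2 with the medians of macrophage and monocyte and of neutrophil markers (right). The 4 members on the left and both marker medians are near 0 or above on array 1 and lowest on array 3, while Ccl6 is above 0 on every array.

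The wider pathway was described from lists put together by known function. Over all genes tested, 7.13% were higher and 6.54% lower at an unadjusted p under 0.05 in limma. Ppbp, Il1a and Il6 of these lists passed the filter through control channels only, and Ctsg through IUGR channels only. Of 6 platelet, atypical and chemokine-like genes tested, 1 was higher and 0 lower at an unadjusted p under 0.05: the platelet chemokine Pf4 had 0.18, 1.23, 1.36 and 0.18 and a fitted ratio of 0.74 ± 0.27. Of 15 inducers of chemokine transcription tested, 2 were higher and 0 lower. The cytokine Tnf had 0.82, 1.06, 0.45 and 0.32 and a fitted ratio of 0.66 ± 0.09 (limma adjusted p = 0.339), and the NF-kappaB subunit Rela had 0.29 ± 0.09. Of 12 regulators and proteases tested, 0 were higher and 3 lower. These were Rgs1, which damps receptor signalling in lymphocytes, at -0.47 ± 0.11, the heparan sulphate proteoglycan Sdc1, which binds chemokines, at -0.40 ± 0.10, and the protease Mmp9 at -0.24 ± 0.09, which passed the filter through control channels only. Rgs1 had 0.18, 0.25, -1.39 and -0.93 on arrays 1 to 4 and Sdc1 -0.65, -1.06, 0.13 and -0.03, so each split by dye orientation. Of 20 genes of signalling below the receptors tested, 0 were higher and 1 lower, the leukocyte GTPase Rac2 at -0.39 ± 0.10. The medians of these 4 lists were 0.083, 0.013, -0.15 and 0.0055, and none of their genes passed at an adjusted p under 0.05 (0 genes).

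Neighbours on the genome shared a sign in some clusters and not in others. On chromosome 10 of rn4, Ccl2, Ccl7, Ccl12 and Ccl1 lie between 70257919 and 70380740 and had fitted ratios from -0.30 to -0.07. Ccl5, Ccl9, Ccl6, Ccl3 and Ccl4 lie between 71605854 and 71760324, and their ratios ran from -0.82 to 0.95. On chromosome 14, Cxcl9, Cxcl10 and Cxcl11 (17252192 to 17288890) ran from -0.02 to 0.16, and Cxcl1, Cxcl2, Cxcl3 and Cxcl6 (18677165 to 18825755) held the ratios of -0.53 and 0.87. On chromosome 19, Ccl17, Cx3cl1 and Ccl22 (10641376 to 10697682) were all below 0, from -0.38 to -0.17. On chromosome 8 the 5 tested of 7 receptor genes between 128541908 and 128893864 ran from -0.15 for Cxcr6 to 0.39 for Ccr9. The closest member probes of different genes, those of Cxcl6 and Xcl1, matched at 35 of 60 bases without gaps.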

How the data were processed

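Islet RNA of 4 IUGR and 4 control rats' samples was compared on 4 two-colour Agilent arrays (design 28282, 60-base probes with rn4 coordinates). Per the file headers, the deposited mean signals and local backgrounds are intensity values from Agilent Feature Extraction 10.10.1.1, and the deposited background and outlier flags are its own. The deposited value table holds log2 Cy5 over Cy3 ratios, whose normalization the labels do not state. Matched by row number, its values correlated with loess ratios made without background subtraction at r = 0.986 to 0.998 across probes, with array medians of -0.029 to 0.008. The submitters' processing notes name limma without settings.

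Here, in R 4.3.3 with limma 3.58.1, signals were background-corrected (normexp, offset 50) and loess-normalized within arrays with control spots at weight 0. Feature outliers were dropped, and where the local background of a spot was an outlier (222, 44, 145 and 52 spots on arrays 1 to 4) the median of that channel replaced it. Spots were averaged by probe, and the probe of highest mean intensity stood for a gene. limma fitted a dye term and the IUGR contrast (2 residual and 2.75 prior degrees of freedom), with Benjamini-Hochberg adjustment over 20012 genes. Levels of 1 channel came from Aquantile normalization after loess. The number of arrays limits the precision. The test was tested on simulated data.

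The members, lists and alternatives were chosen with earlier results of these data known. A gene that meets the rule is not reported here and enters no member count. Full values were given for tested members with an unadjusted p under 0.05, for those with the same sign on 4 arrays, and for the ligand and receptor pairs. Ccl3, Ccl7, Ccl24 and Ccr9 were added after their values were seen. Gene names are those of the array files. Samples of the same replicate number lie on different arrays, and their deviations from the group means correlated at r = -0.28 to 0.09, so the numbers were not taken to pair samples. Alternatives changed the background correction, the starting values, the normalization, the filter, the probe rule, the weights and the arrays used. Proteins and an rn4 genome were not used here.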

Additional observations from a re-analysis of the deposited data

Results flagged for a closer look

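The log2 IUGR over control ratio of Ccl1, a chemokine of activated T cells, was -0.62 on array 3, apart from -0.02, -0.04 and -0.08 on the other arrays. The gap to the nearest of these was 0.90 of the whole range, above Dixon's critical value for 4 values. Ccl1 was the 1 gene so marked among 29 checked, where chance marks about 1 in 20 groups. The probe was above background in 0 IUGR channels and 2 control channels, and the control sample of array 3 also had the highest summed T and natural killer cell marker intensity (8240). The part of either in this value was not tested.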

How the results depend on the processing

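No member passed an adjusted p under 0.05 in limma under any of the alternatives run (0 of 454 values of 29 genes). Of these values, 442 kept the direction of the main setting and 12 did not, and 21 genes never changed sign. The size of dim members moved where the sign did not. Ccr1 ran from 0.18 to 1.02, Ccl20 from -1.80 to -0.37 and Cxcl17 from -1.27 to -0.44. Median centring in place of loess turned Ccl28 (0.43), Cxcr3 (0.19), Ccl24 (-0.065), Ccl1 (0.38), Cxcr6 (0.42) and Cxcl10 (-0.047). Channel brightness as a covariate turned Ccr2 (-0.00019), and Agilent's processed signals turned Cxcl10 (-0.033). Leaving out 1 array turned Ccl2 (0.013 without array 2 and 0.017 without array 4, range -0.31 to 0.017) and Cxcl10 (-0.18 without array 1 and -0.013 without array 3, range -0.18 to 0.23). Calls over the whole table, 0 in the main setting, came to 15 under median centring and 8 with the brightness covariate. The 14 members at an unadjusted p under 0.05 became 6 under median centring (5.92% of all genes), 9 under a filter that asks for all 8 channels above background (13.8%), 6 without outlying backgrounds (7.38%), 8 with the brightness covariate (7.32%) and 6 to 17 with 1 array left out. With the replicate number of the labels as a block they were 6 (11.0% of all genes), although the numbers share no array and were not shown to pair the samples. The ligand median stayed below 0, from -0.32 with processed signals to -0.053 under median centring. The median over all genes was below 0 in these settings too, at -0.084 and -0.048, so under median centring the ligands lay close to all genes. The receptor median moved to -0.18 with processed signals, 0.31 under median centring and -0.10 under the strict filter. The cause of these changes was not tested, apart from the smaller number of genes and arrays that some alternatives use. Signal over background limits the dim members: 8 genes could not be tested, and Ccl1 and Ccl28 were above background in 0 IUGR channels.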
